A study of Homo sapiens with 6 samples.

Results

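The receptor tyrosine kinase genes MET, MST1R (which encodes RON), AXL, TYRO3, MERTK, DDR1 and DDR2 and the ligand gene GAS6 were followed in the human pancreatic cancer line YAPC, which the study treats as classical. They were found by symbol in the deposited table and are 8 of its 25442 genes. Their levels were read in 6 RNA-seq libraries, 3 of YAPC-rtta-GLI2 cells (iGLI2) and 3 of YAPC-rtta-EV cells (iEV). Both lines were engineered with rtTA, the transactivator that doxycycline (Dox) switches on, and both were kept in Dox for 6 days. The iGLI2 cells carried a Flag-tagged human GLI2 cDNA in the pRetroX-Tight-Puro vector and the iEV cells carried that vector empty, so Dox and the vector are common to both groups. The sources used here do not say whether each line was a clone or a pool of cells, nor whether the 3 libraries of a line came from separate cultures, so the p-values measure the spread between these libraries, which may be technical. The comparison asks what 6 days of GLI2 expression did to the levels of these genes.

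MET is the receptor of hepatocyte growth factor (HGF), and RON is its close relative, bound by macrophage-stimulating protein (MSP, encoded by MST1). TYRO3, AXL and MERTK form the TAM family, which is engaged by the vitamin K-dependent proteins GAS6 and protein S (encoded by PROS1) and can recognise phosphatidylserine on dying cells through them. DDR1 and DDR2 differ from other receptor kinases in that their ligand is collagen, and DDR2 is typical of mesenchymal cells whereas DDR1 is typical of epithelium. MET and AXL are often studied in pancreatic cancer for invasion and drug resistance.

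Levels are in FPKM (fragments scaled by transcript length and by library), a measure per length, so genes can be set side by side, and means are given ± SD over 3 libraries a group. The total was 803149 to 889559 FPKM in the iGLI2 libraries and at least 981344 FPKM in each iEV library. Small RNA genes took 38.9% to 40.4% of that total in iGLI2 and 45.4% to 48.4% in iEV libraries. The depth of the libraries is unknown, so no counting error is given. GLI2 was at 0.466, 0.412 and 0.344 FPKM in iEV libraries 1 to 3 and at 94.5, 207 and 195 FPKM in iGLI2 libraries 1 to 3, and each library thus had the GLI2 level of its label. Among 5 epithelial markers, KRT19, EPCAM and CDH1 were expressed in every library, while KRT8 and KRT18 are listed at 0 in all 6. KRT8 and KRT18 are abundant in simple epithelia, so a value of 0 in this table cannot be read as absence. Fibroblast markers (8 genes) summed to 1.51 to 1.63 FPKM in iEV and 2.40 to 3.10 FPKM in iGLI2 libraries, and endothelial markers (5 genes) to 0.487 to 0.537 and 0.467 to 0.654 FPKM.

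GLI2 expression was accompanied by lower levels of MET, MST1R, AXL and MERTK and by a higher level of DDR1. MERTK and AXL had the larger changes, to 0.424 and 0.507 of their iEV means, whereas MET and MST1R were at 0.766 and 0.768 and DDR1 at 1.25 of theirs. TYRO3 was lower and GAS6 higher in every iGLI2 library, but neither passed the test, and DDR2 was too low to be tested. Of the 8 genes, 7 averaged 1 FPKM or more across all 6 libraries and entered limma's moderated test, two-sided, on log2(FPKM + 1) with Benjamini-Hochberg adjustment over all 12493 genes tested. At an adjusted p under 0.05, 4 of the 7 were lower, where 11.8% of all genes tested were, and 1 was higher, where 10.1% of all genes were. In either direction the share over all genes was 21.9%. The groups did not overlap for any of the 7, as for 42.0% of all genes tested, with 5 below (22.8% of all genes) and 2 above (19.2%). The median log2 fold change was -0.36 over the 7 genes and -0.015 over all genes tested.

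**Figure D1:**
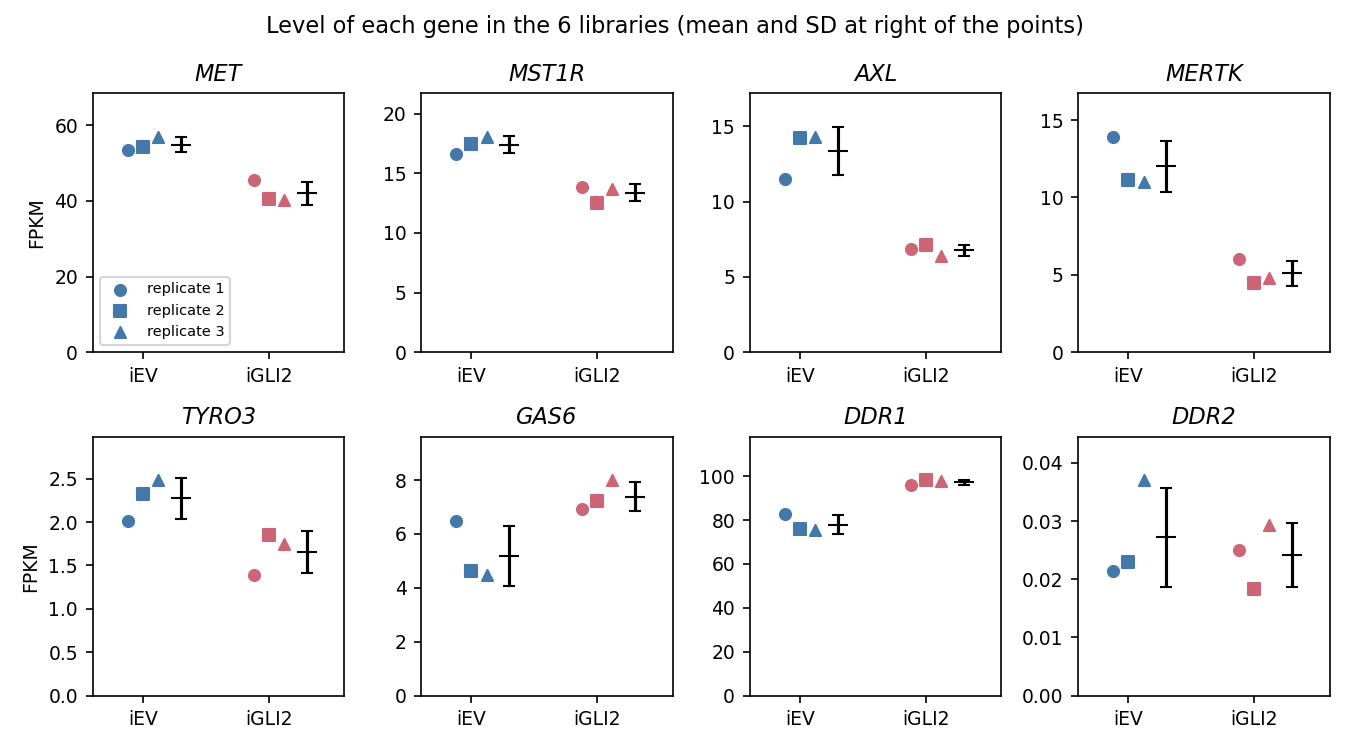
Level of the 8 genes in FPKM (vertical axes, linear and starting at 0, each gene on its own scale) in the 3 iEV libraries (blue) and the 3 iGLI2 libraries (red), with symbols for the replicate numbers and the mean with its SD in black. The groups are apart for all but DDR2, whose iEV and iGLI2 values, 0.0183 to 0.0370 FPKM, overlap.

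The order of the levels was partly the same in both groups. DDR1 was highest in iEV cells, followed by MET, MST1R, AXL, MERTK, GAS6, TYRO3 and DDR2. The ranges of neighbours in that order did not meet, except for AXL and MERTK, whose iEV values overlapped. In iGLI2 cells DDR1, MET and MST1R kept the first places, but GAS6 came next with 7.38 FPKM and overlapped AXL, with 6.77 FPKM, and MERTK followed. DDR1 made up 42.3% to 45.9% of the summed FPKM of the 7 receptors in iEV libraries and 56.6% to 59.7% in iGLI2 libraries. The sum itself was 178 ± 2.49 FPKM without and 166 ± 2.86 FPKM with GLI2.

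MET lies on chromosome 7 of hg19 from 116312459 to 116438440 in the deposited table, on the plus strand, and its MANE Select transcript in the GENCODE annotation has 21 exons. Its level was 53.4, 54.3 and 57.0 FPKM in iEV libraries 1 to 3 and 45.5, 40.4 and 40.2 FPKM in iGLI2 libraries 1 to 3. Every iGLI2 library was below every iEV library. On the log2 scale the fold change was -0.38 (standard error 0.072, 95% interval -0.55 to -0.20, limma adjusted p = 0.0155). The call was lost without iEV replicate 2 (limma adjusted p = 0.0677), iEV replicate 3 (0.0691), iGLI2 replicate 2 (0.0703) or iGLI2 replicate 3 (0.0627), and when small RNA genes were left out and the libraries rescaled (0.0594). With that rescaling the log2 fold change of MET was -0.30. On the deposited scale the median was -0.14 over 12 reference genes and -0.015 over all genes tested. Of the reference genes, 2 were called lower (16.7%, against 11.8% of all genes tested) and 0 higher (against 10.1%). The part of scaling in the MET result was not tested.

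MST1R, on chromosome 3 from 49924436 to 49941306 on the minus strand, encodes RON. It had 16.7, 17.5 and 18.1 FPKM in the iEV libraries and 13.8, 12.5 and 13.7 FPKM in the iGLI2 libraries, in the order of the replicates. All iGLI2 values lay below the lowest iEV value. The log2 fold change was -0.36 (standard error 0.065, 95% interval -0.52 to -0.20, limma adjusted p = 0.0137). It was lost as a call without iEV replicate 2 (0.0672), iEV replicate 3 (0.0653) or iGLI2 replicate 2 (0.0605, all limma adjusted p). The ratio of MET to MST1R within a library, which does not depend on the scaling between libraries, was 3.21, 3.11 and 3.15 in the iEV and 3.29, 3.22 and 2.93 in the iGLI2 libraries. Its mean log2 value differed by -0.0052 between the groups (exact permutation test, two-sided, p = 1, where 0.1 is the smallest p that 3 libraries against 3 allow), and the groups overlapped.

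The ligands of both receptors were nearly unexpressed in these cells. HGF had at most 0.0693 FPKM in any library and was listed at 0 in iEV replicate 1 and iGLI2 replicate 3. MST1, on chromosome 3 from 49721380 to 49726196, was between 0.383 and 0.597 FPKM in iEV and between 0.376 and 0.707 FPKM in iGLI2 libraries. Neither entered the test. HGF and MSP are made as inactive precursors that serine proteases cleave, and 5 of a list of 6 such proteases and their inhibitors were tested. Of these, 2 were lower in iGLI2 cells (40.0%, against 11.8% of all genes tested) and 0 were higher (against 10.1%). Their median log2 fold change was -0.33. PLAU (urokinase) fell from 329 ± 56.4 to 114 ± 6.51 FPKM (log2 fold change -1.51, limma adjusted p = 0.00133). SPINT1, an inhibitor of the HGF-activating proteases, fell from 120 ± 4.34 to 97.2 ± 5.67 FPKM (log2 fold change -0.30, limma adjusted p = 0.0276). The proteases ST14 (matriptase) and HPN (hepsin), with log2 fold changes of -0.33 and -0.69, and the inhibitor SPINT2, with 0.039, did not pass the test.

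For proteins that act with MET at the membrane, the calls were in the other direction. Of 6 co-receptor genes tested, 5 were higher in iGLI2 cells (83.3%, against 10.1% of all genes tested) and 0 lower (against 11.8%). Their median log2 fold change was 0.64. CD44, the hyaluronan receptor whose splice forms present HGF, rose from 40.1 ± 3.62 to 73.3 ± 1.99 FPKM (log2 fold change 0.86, limma adjusted p = 0.00138). ITGA6 and ITGB4 encode the laminin-binding α6β4 integrin. ITGA6 rose from 98.6 ± 7.17 to 168 ± 6.23 FPKM and ITGB4 from 46.8 ± 1.28 to 135 ± 28.8 FPKM, and their log2 fold changes were 0.76 and 1.48 (limma adjusted p = 0.00160 and 0.00258). The sixth gene, PLXNB1, had a log2 fold change of 0.074 and did not pass.

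**Figure D2:**
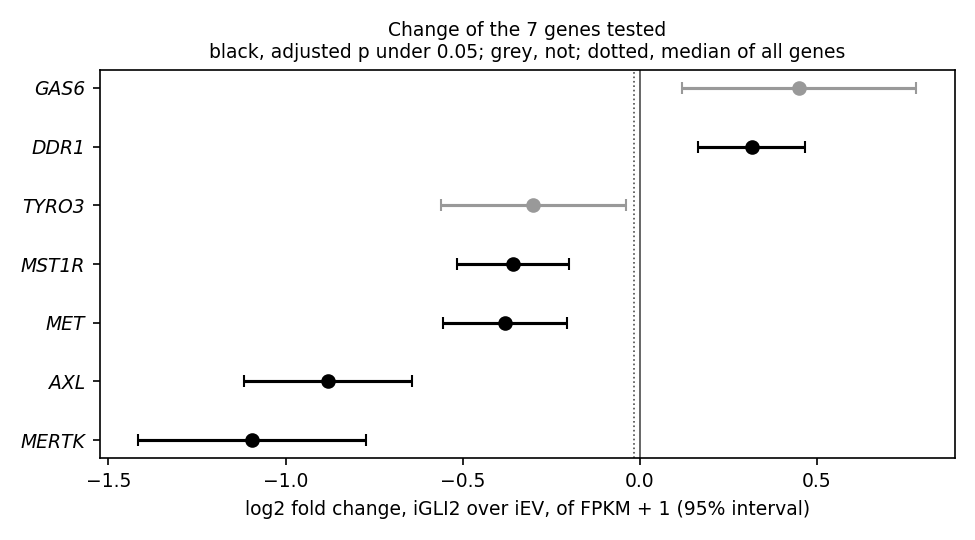
Log2 fold change of FPKM + 1 in iGLI2 over iEV cells (horizontal axis) for the 7 genes tested, with 95% intervals from limma over 3 libraries a group. MERTK (-1.09) and AXL (-0.88) lie furthest to the left, DDR1 (0.32) lies to the right, and GAS6 and TYRO3 (grey) did not pass the test.

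Among the TAM receptors, MERTK and AXL fell and TYRO3, the least expressed, did not pass the test. MERTK lies on chromosome 2 from 112656191 to 112786945 on the plus strand. It was at 13.9, 11.1 and 11.0 FPKM in iEV libraries 1 to 3 and at 6.03, 4.50 and 4.77 FPKM in iGLI2 libraries 1 to 3. The highest iGLI2 value was well under the lowest iEV value. Its log2 fold change was -1.09 (standard error 0.13, 95% interval -1.42 to -0.77, limma adjusted p = 0.00327), and 2.12% of all genes tested had a lower one. It stayed between -1.20 and -0.99 with each library left out, at limma adjusted p-values of 0.00257 to 0.0179. In bulk RNA, fewer cells with the transcript and less transcript per cell cannot be told apart. MERTK is also a gene of macrophages, and the 6 macrophage and leukocyte markers summed to 4.26 to 5.37 FPKM in iEV and 1.35 to 2.12 FPKM in iGLI2 libraries. CD14 held nearly all of that sum and was the 1 marker that could be tested (lower, log2 fold change -1.11, limma adjusted p = 0.00274). Of the other markers, PTPRC, CD163, CSF1R and AIF1 were at 0.126 FPKM or less in every library and TYROBP is listed at 0 in all 6. Whether macrophages had a part in the MERTK level was not tested.

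AXL, on chromosome 19 from 41725104 to 41767672 on the plus strand, encodes a TAM receptor with high affinity for GAS6. Its values were 11.5, 14.2 and 14.3 FPKM in the iEV libraries and 6.84, 7.10 and 6.39 FPKM in the iGLI2 libraries. iEV replicate 1 was the lowest of its group for AXL and the highest for MERTK, and the groups stayed apart for both. The log2 fold change of AXL was -0.88 (standard error 0.097, 95% interval -1.12 to -0.64, limma adjusted p = 0.00255). It stayed between -0.97 and -0.83 with each library left out, at limma adjusted p-values of 0.00239 to 0.0171. The ratio of AXL to MERTK was between 0.827 and 1.31 in iEV and between 1.13 and 1.58 in iGLI2 libraries, and these ranges overlapped (exact permutation test, two-sided, p = 0.4, adjusted p = 0.5 over 5 pairs).

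The bases around the annotated start sites of AXL and MERTK are shown because these receptors had the largest changes. They run from 250 bases before to 50 bases after the start, 5′ to 3′ on the gene's strand, from RefSeq on GRCh38.p14, and all 8 genes had an entry there. Capitals mark matches, on either strand, to GACCACCCA (a GLI consensus), CACCTG (an E-box), TGANTCA (AP-1), GGAATG (TEAD) or TATAAA. AXL has 2 annotated starts, at chr19:41218973-41219272 and chr19:41226505-41226804, and MERTK has 1, at chr2:111898357-111898656.
AXL, first start: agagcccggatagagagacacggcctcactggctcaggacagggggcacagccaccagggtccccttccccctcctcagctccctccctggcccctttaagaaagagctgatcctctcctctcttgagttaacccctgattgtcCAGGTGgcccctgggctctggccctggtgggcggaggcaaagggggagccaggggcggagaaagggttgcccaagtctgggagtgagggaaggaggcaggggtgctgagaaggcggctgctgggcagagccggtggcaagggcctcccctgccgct
AXL, second start: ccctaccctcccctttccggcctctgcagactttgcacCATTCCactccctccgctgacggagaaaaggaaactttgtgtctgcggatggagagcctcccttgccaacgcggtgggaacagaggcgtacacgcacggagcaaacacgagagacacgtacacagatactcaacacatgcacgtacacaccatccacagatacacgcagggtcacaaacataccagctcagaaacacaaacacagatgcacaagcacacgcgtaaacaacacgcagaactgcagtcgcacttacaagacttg
MERTK: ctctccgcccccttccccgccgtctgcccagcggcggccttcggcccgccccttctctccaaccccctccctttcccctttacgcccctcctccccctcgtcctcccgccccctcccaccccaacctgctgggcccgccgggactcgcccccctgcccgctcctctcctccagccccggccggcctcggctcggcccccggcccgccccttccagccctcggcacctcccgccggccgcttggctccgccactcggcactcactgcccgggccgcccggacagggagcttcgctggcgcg
The first AXL window holds the E-box on the opposite strand, its first base at -106, and the second holds GGAATG on the opposite strand from -212. The MERTK window holds none of these motifs and has 32 CpG, more than 81.1% of 35116 such windows, while the AXL windows have 7 and 17. GACCACCCA is not in the window of any of the 8 genes and is found in 0.236% of all windows. CACCTG is found in 20.6%, TGANTCA in 7.71%, GGAATG in 14.0% and TATAAA in 11.5% of them. A match of such letters is a description of the sequence, not a binding site.

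TYRO3, on chromosome 15 from 41851220 to 41871536, had 2.01, 2.32 and 2.48 FPKM in the iEV libraries and 1.39, 1.85 and 1.75 FPKM in the iGLI2 libraries. The iGLI2 values were all below the iEV values, by a small margin for iGLI2 replicate 2 and iEV replicate 1. In limma the log2 fold change was -0.30 (standard error 0.11, 95% interval -0.56 to -0.039, adjusted p = 0.101). TYRO3 has a near-identical pseudogene, TYRO3P, at 0 to 0.0510 FPKM, and how reads that fit both were shared out is not given in the sources used here. The ratio of AXL to TYRO3 was 5.74, 6.12 and 5.77 in iEV and 4.93, 3.84 and 3.66 in iGLI2 libraries. For this pair and for TYRO3 to MERTK the ratios did not overlap between the groups, and each reached the smallest p the exact permutation test allows, 0.1 (two-sided, adjusted p = 0.167 over 5 pairs).

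The 3 TAM receptors together had 27.5, 27.7 and 27.8 FPKM in the iEV libraries and 14.2, 13.4 and 12.9 FPKM in the iGLI2 libraries. The SD of the sum was 0.160 FPKM among the iEV libraries, where MERTK had 1.66 FPKM and AXL 1.59 FPKM, and 0.676 FPKM among the iGLI2 libraries, where MERTK had 0.814 FPKM and AXL 0.360 FPKM. AXL took 48.3% ± 5.49 of the sum in iEV and 50.1% ± 2.46 in iGLI2 cells, MERTK took 43.5% ± 6.28 and 37.6% ± 4.44, and TYRO3 took 8.22% ± 0.829 and 12.3% ± 2.26.

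The TAM ligand GAS6 differed in the other direction from its receptors. It lies on chromosome 13 from 114518583 to 114567076 on the minus strand and had 6.47, 4.62 and 4.49 FPKM in iEV libraries 1 to 3 and 6.93, 7.23 and 7.997 FPKM in iGLI2 libraries 1 to 3. iEV replicate 1 stood near the iGLI2 libraries. The log2 fold change was 0.45 (standard error 0.13, 95% interval 0.12 to 0.78), and the limma adjusted p of 0.0630 missed the threshold. It was 0.0120 without iEV replicate 1, where the log2 fold change was 0.59, and 0.0334 after small RNA genes were left out and the libraries rescaled. GAS6-AS1, on the opposite strand, has the same locus in the table and had 0.129 to 0.740 FPKM, and the sources used here do not say whether reads were counted by strand. AXL was 1.78 to 3.19 times GAS6 in iEV libraries and 0.799 to 0.987 times GAS6 in iGLI2 libraries, ratios that did not overlap (exact permutation test, two-sided, p = 0.1, adjusted p = 0.167 over 5 pairs). PROS1, the other TAM ligand, had mean levels of 3.08 ± 0.352 FPKM (iEV) and 3.75 ± 0.431 FPKM (iGLI2), with overlapping groups and a limma adjusted p of 0.187.

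**Figure D3:**
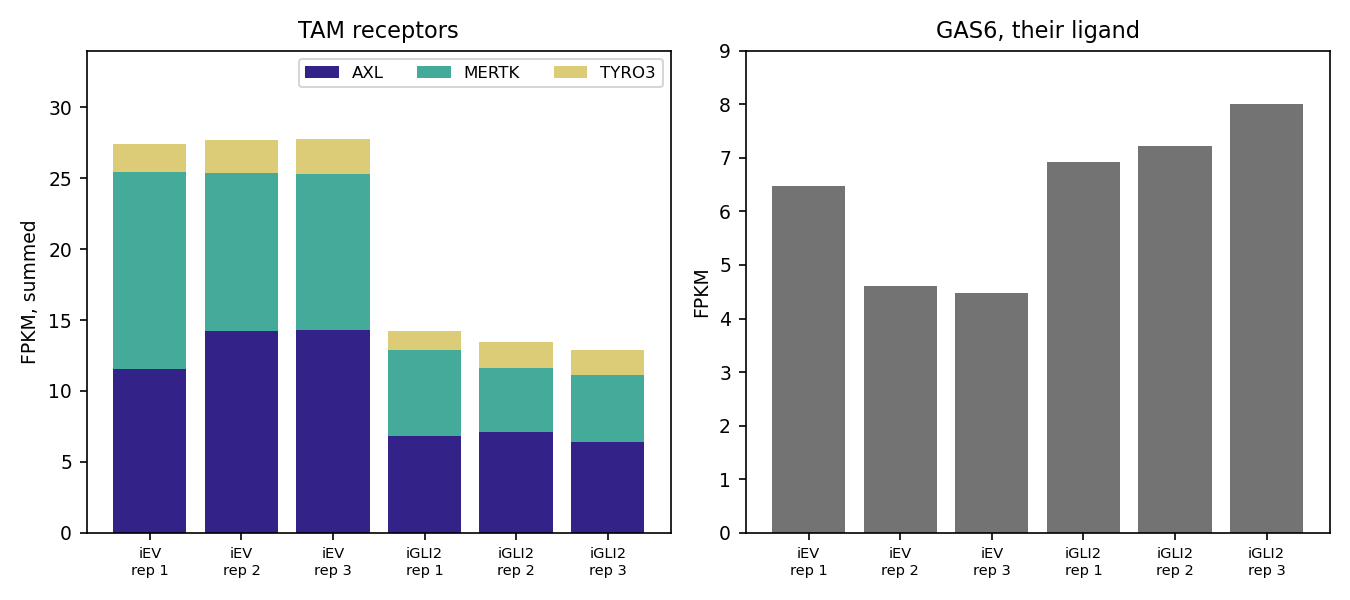
Left, FPKM of AXL, MERTK and TYRO3 stacked for each library; right, FPKM of GAS6 in the same libraries, both axes from 0. The stacked receptors reach 27.5 to 27.8 FPKM in the iEV libraries and 12.9 to 14.2 FPKM in the iGLI2 libraries, while GAS6 is between 4.49 and 6.47 FPKM in the former and between 6.93 and 7.997 FPKM in the latter.

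The enzymes that make GAS6 and protein S active by γ-carboxylation (GGCX, VKORC1 and VKORC1L1) and the proprotein convertase FURIN formed a list of 4, all tested. In limma 0 of them were higher and 0 lower, against 10.1% and 11.8% of all genes tested. None had an unadjusted p under 0.05, and the median log2 fold change was -0.060. A list of 11 genes for phosphatidylserine exposure and its other receptors had 6 tested. Of these, 1 was higher and 1 lower (16.7% each, near the 10.1% and 11.8% of all genes tested). MFGE8, a bridging protein that links phosphatidylserine to integrins, rose from 58.4 ± 3.15 to 117 ± 21.5 FPKM (log2 fold change 0.97, limma adjusted p = 0.00734). ANO6, a scramblase that exposes phosphatidylserine, fell from 27.7 ± 1.83 to 16.7 ± 1.47 FPKM (log2 fold change -0.70, limma adjusted p = 0.00354).

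DDR1, on chromosome 6 from 30850390 to 30867933 on the plus strand, was the 1 receptor of the 7 that rose. It had 82.7, 75.8 and 75.3 FPKM in iEV libraries 1 to 3 and 95.9, 98.2 and 97.7 FPKM in iGLI2 libraries 1 to 3. The iGLI2 libraries lay close together, and the gap to the highest iEV library was larger than the range within either group. This was a log2 fold change of 0.32 (standard error 0.062, 95% interval 0.17 to 0.47, limma adjusted p = 0.0170). The call was lost without iEV replicate 2 (limma adjusted p = 0.0872), iEV replicate 3 (0.0763), iGLI2 replicate 2 (0.0781) or iGLI2 replicate 3 (0.0670). Of the epithelial markers tested, EPCAM (405 ± 11.4 to 523 ± 2.55 FPKM, limma adjusted p = 0.00709) and CDH1 (53.2 ± 2.77 to 68.9 ± 3.88 FPKM, 0.0169) also rose, both by 0.37 on the log2 scale, and KRT19 did not pass. The 5 epithelial markers summed to 1025 to 1156 FPKM in iEV and 1111 to 1173 FPKM in iGLI2 libraries, and their part in the DDR1 result was not tested. DDR1 lies in the major histocompatibility region, and the table has 5 more entries of that name on alternative haplotypes of chromosome 6, all at 0 in every library. MIR4640, a microRNA gene within DDR1, is listed at 81.4 FPKM in iEV replicate 3, at 14.9 FPKM in iGLI2 replicate 3 and at 0 in the other libraries.

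DDR2, on chromosome 1 from 162602228 to 162750247, was at 0.0215, 0.0230 and 0.0370 FPKM in the iEV libraries and at 0.0250, 0.0183 and 0.0293 FPKM in the iGLI2 libraries. The groups overlapped, and the values were too low for the test. DDR2 is characteristic of fibroblasts. Of the 8 fibroblast markers, COL1A2, COL3A1, DCN, LUM and THY1 were at 0.0255 FPKM or less in every library, PDGFRB reached 0.0335 and PDGFRA 0.142 FPKM, and COL1A1, the 1 that could be tested, had 1.29 to 2.98 FPKM and was higher in iGLI2 cells.

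Of 12 collagen genes that encode ligands of the DDR receptors, 3 were expressed at the level the test required. Of these, 2 rose (66.7%, against 10.1% of all genes tested) and 0 fell (against 11.8%). COL4A1, a chain of basement membrane collagen, rose from 6.43 ± 0.610 to 10.4 ± 0.690 FPKM (log2 fold change 0.62, limma adjusted p = 0.00509). COL1A1, a chain of fibrillar collagen, rose from 1.41 ± 0.127 to 2.69 ± 0.365 FPKM (log2 fold change 0.61, limma adjusted p = 0.0110). COL1A2, whose product pairs with that of COL1A1 in type I collagen, was at 0.0139 FPKM or less in every library. Integrins are the other collagen receptors. Of 4 entries tested, 2 were higher (against 10.1% of all genes tested) and 0 lower (against 11.8%). ITGA1 was tested only as the merged entry ITGA1,PELO, which is not a value of the integrin alone and did not pass. ITGA2 rose from 52.5 ± 1.13 to 96.0 ± 0.748 FPKM and ITGB1, its partner chain, from 269 ± 3.73 to 541 ± 33.4 FPKM, with log2 fold changes of 0.86 and 1.00 (limma adjusted p = 0.000398 and 0.000554).

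Of 15 shared adaptors and effectors inside the cell, 13 were tested, 1 was higher (7.69%, near the 10.1% of all genes tested) and 2 were lower (15.4%, near the 11.8% of all genes), with a median log2 fold change of -0.038. PIK3R1, the p85α regulatory subunit of phosphoinositide 3-kinase, rose from 5.83 ± 0.373 to 21.3 ± 1.17 FPKM (log2 fold change 1.71, limma adjusted p = 0.000131). SRC, a tyrosine kinase recruited by several of these receptors, fell from 25.8 ± 2.27 to 16.1 ± 1.31 FPKM (log2 fold change -0.64, limma adjusted p = 0.00587), and STAT3, a transcription factor that MET can activate, fell from 51.8 ± 0.636 to 41.9 ± 0.706 FPKM (log2 fold change -0.30, limma adjusted p = 0.0112). PIK3CA, the catalytic partner of PIK3R1, had a log2 fold change of 0.13 and did not pass.

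Genes that switch these receptors off or release their ectodomains had calls in both directions. All 11 of a list of negative regulators and sheddases were tested, with a median log2 fold change of 0.27. Of these, 4 rose (36.4%, against 10.1% of all genes tested) and 1 fell (9.09%, near the 11.8% of all genes). That median includes MUC20, which was not called and had a log2 fold change of 0.94. It is listed at 76.6, 91.1 and 0 FPKM in iEV libraries 1 to 3, and its mean was lower in iGLI2 cells. SH3KBP1 (CIN85), which links CBL to receptor internalisation, rose from 29.3 ± 1.65 to 47.4 ± 1.83 FPKM (log2 fold change 0.68, limma adjusted p = 0.00168). LRIG1, a membrane protein that lowers MET and ERBB levels, rose from 12.8 ± 0.422 to 18.7 ± 2.85 FPKM (log2 fold change 0.50, limma adjusted p = 0.0287). CBLB, a ubiquitin ligase, rose from 1.69 ± 0.574 to 3.80 ± 0.997 FPKM (log2 fold change 0.84, limma adjusted p = 0.0364). PTPN1, a phosphatase that acts on MET, fell from 45.3 ± 1.61 to 34.9 ± 0.180 FPKM (log2 fold change -0.36, limma adjusted p = 0.00709). The sheddases ADAM10 and ADAM17, which release the ectodomains of AXL, MERTK and MET, had log2 fold changes of -0.24 and -0.070 and did not pass.

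**Figure D4:**
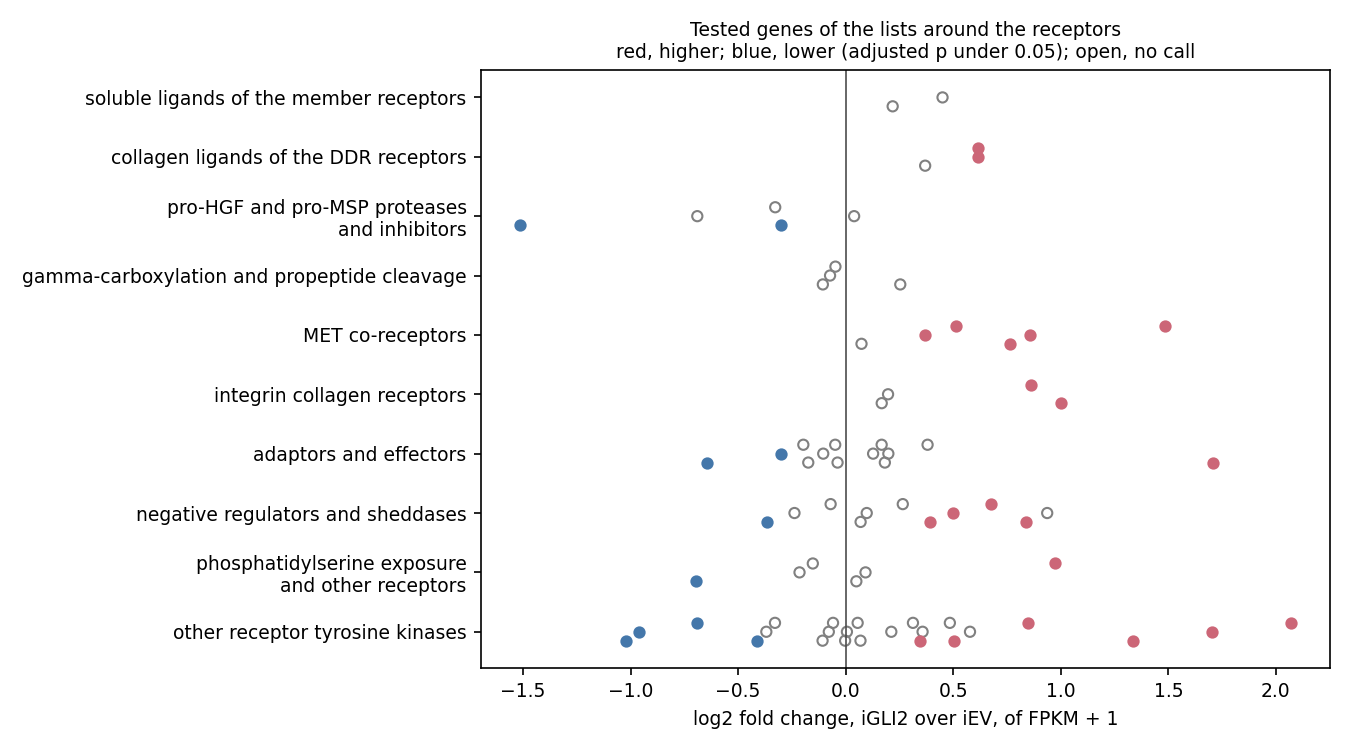
Log2 fold change of FPKM + 1 in iGLI2 over iEV cells (horizontal axis) for the tested genes of 10 lists (rows), with genes higher (red) or lower (blue) at a limma adjusted p under 0.05 and the others open. The 5 MET co-receptors called lie to the right of 0 and both protease list members called lie to the left.

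Of 51 other receptor tyrosine kinases, 24 were tested and 14 of these did not pass. Of the tested genes, 6 were higher (25.0%, against 10.1% of all genes) and 4 were lower (16.7%, against 11.8%), and their median log2 fold change was 0.062. EPHB6 (log2 fold change 1.34), FGFR2 (1.70) and FGFR3 (2.07) had the smallest adjusted p among those that rose, and FGFR1 (-1.02), ROR1 (-0.96) and STYK1 (-0.69) among those that fell. EGFR and ERBB2, which are often active beside MET, had log2 fold changes of 0.069 and 0.0058 and overlapping groups.

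Over the 6 libraries, many genes follow the difference between the groups, so a high correlation with a member is common. The number of genes with a Pearson r of at least 0.95 on the log2(FPKM + 1) scale was 401 for MET, 360 for MST1R, 565 for AXL, 538 for MERTK and 543 for DDR1. Among the closest were C11orf45 and CISD1 for MET, ZNF263 and FAIM for MST1R, WDYHV1 for AXL, TMEM229B and the merged entry PHLDB2,PLCXD2 for MERTK, and ZNF180 and RHOF for DDR1, with r between 0.996 and 1.000.

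**Figure D5:**
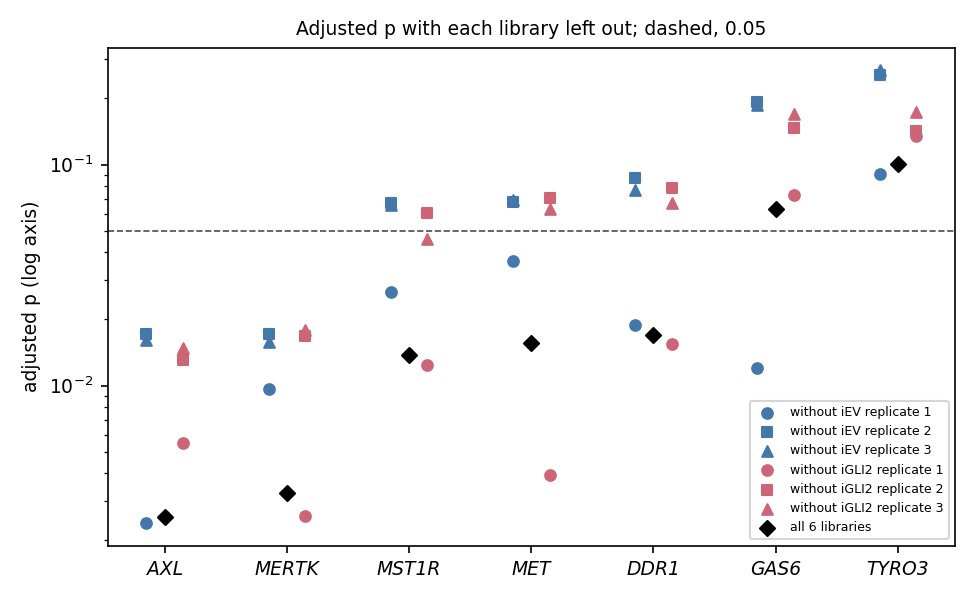
Adjusted p from limma (vertical axis, log scale) for the 7 genes with all 6 libraries (black diamonds) and with each iEV library (blue) or iGLI2 library (red) left out, with the threshold of 0.05 dashed. AXL and MERTK stay under it in all 6 cases, MET, MST1R and DDR1 cross it in 4, 3 and 4 cases, GAS6 goes under it without iEV replicate 1, and TYRO3 stays above it.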

How the data were processed

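RNA of YAPC cells was sequenced in 6 libraries, 3 a group. Per the study's methods, Trimmomatic was used for clipping, tophat2 for alignment (hg19) and cuffdiff for expression, the latter given as version 2.1.1 in the submitters' processing notes. The annotation, the scaling between libraries, the use of strand and the handling of reads with several matches are not given in the sources used here. The header of the deposited FPKM table names no unit, which was read from the values (fractional, with unequal totals, and very high for very short genes). All value columns were matched to a sample. Table starts count from 0, and 1 was added.

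Of 27024 entries, 1252 outside the primary chromosomes were left out and the entry with the highest mean was kept for each name, which left 25442 genes. Low values gave no sharp step for 1 fragment (the most frequent ratio to iEV replicate 1 was shared by at most 1.95% of 2516 genes), so depth is unknown. The test was limma 3.58.1 (R 4.3.3) with a mean trend, on log2 values after adding 1, for genes whose mean reached 1 FPKM, and calls were made at an adjusted p under 0.05. It was tested on simulated data with known changes. Ratios within a library were compared with exact permutation tests in scipy 1.17.1, and figures were drawn with matplotlib 3.10.9. Exons and strands came from GENCODE release 44 lifted to GRCh37.

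The members and the gene lists, written from general knowledge, were chosen with earlier results of these data known. Named in the text are the members, GLI2, 3 ligands, the 3 genes of each list with the smallest adjusted p in each direction, and for each member called the 2 genes with the highest Pearson r, of which 1 is not reported here. Other names, and the motifs, were chosen after values were seen. Small RNA genes were not considered for that correlation.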

Additional observations from a re-analysis of the deposited data

How the results depend on the processing

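AXL, MERTK and GLI2 kept their direction and their call under every alternative tried. With other scalings, filters, pseudocounts and blocks, the log2 fold change of AXL stayed between -0.96 and -0.81 and that of MERTK between -1.22 and -1.02. With small RNA genes left out and the libraries rescaled, MET had -0.30 (limma adjusted p = 0.0594) and lost its call, GAS6 had 0.52 (0.0334) and gained one, and the calls were 1 of the soluble ligands, 1 of the carboxylation list and 5 of the adaptors. Upper quartile scaling gave GAS6 0.49 (limma adjusted p = 0.0445), which was the 1 soluble ligand called, and quantile normalization gave TYRO3 -0.36 (0.0422). Of all calls, 46.0% were higher in iGLI2 cells on the deposited scale, 54.3% with upper quartile scaling and 59.4% with small RNA genes left out. At an adjusted p under 0.01, 1095 genes and 2 members (AXL and MERTK) were called, MET (-0.38), MST1R (-0.36) and DDR1 (0.32) were not, and the lists had 1 collagen, 1 protease, 2 negative regulators and 6 other receptor kinases. Without a filter on low values, 3 negative regulators and 16 other receptor kinases were called, and with a mean of at least 5 FPKM, 1 collagen and 4 other receptor kinases, since fewer genes were tested. Treating the digit in the sample codes as a block called 3 negative regulators.

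Same-numbered libraries did not all deviate together (r = 0.204, 0.0919 and 0.0276), and iEV replicate 2 correlated best with iGLI2 replicate 3. The r of 0.204, for replicate 1 of both groups, was the highest of any iEV with any iGLI2 library. Whether same-numbered libraries share a batch is not given in the sources used here, and the main test used no block. With the replicate number as a block, calls went from 2742 to 3928, TYRO3 (-0.30, adjusted p = 0.0455) was gained and 6 adaptors were called. Leaving out each library in turn, the calls ranged from 1221 (without iEV replicate 2) to 3750 (without iGLI2 replicate 1) over all genes and from 2 to 6 over the members. The ranges over the lists were 0 to 1 soluble ligand, 1 to 3 collagens, 1 to 3 proteases, 0 to 1 of the carboxylation list, 4 to 5 co-receptors, 2 to 5 adaptors, 2 to 5 negative regulators and 6 to 12 other receptor kinases. The log2 fold change ranged from -0.44 to -0.35 for MET, from -0.39 to -0.32 for MST1R, from 0.37 to 0.59 for GAS6 and from 0.29 to 0.36 for DDR1, and the log2 ratio of MET to MST1R differed by -0.038 to 0.046, thus in both directions. The causes of these changes were not tested. Depth is unknown, which limits what can be said of DDR2, HGF and MST1.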
